A study of Mus musculus with 24 samples.

Results

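The livers of weanling R-Cyp1b1-null mice whose mothers ate a diet without vitamin A were compared with livers of the same substrain from mothers on the matching diet with vitamin A. The 6 arrays were those labelled R-Cyp1b1-null at postnatal day 21 (PN21), 3 on the deficient and 3 on the sufficient diet, of 24 arrays in the series. Each array held RNA pooled from 2 male mice. R-Cyp1b1-null is the labels' name for a substrain of Cyp1b1-null mice that resists obesity caused by diet. It lacks cytochrome P450 1B1, an enzyme that can oxidise retinol and many other small molecules, and all 6 arrays share that deletion. Dams were moved from breeder chow to a defined low-fat diet on embryonic day 4.5, with or without vitamin A, and kept on it until the pups were taken at weaning. The other groups used for comparison were PN21 males of the same 2 diets, from wild-type C57Bl/6J mice and from the Cyp1b1-null line without the R prefix. The wild-type sufficient group was 1 RNA pool of 4 mice on 3 arrays and entered the tests as 1 sample. The wild-type deficient group had 3 samples of 1 or 2 mice, and the 2 Cyp1b1-null groups had 2 samples each, of 2 mice. The labels do not say whether the mice of different arrays came from different litters, so p-values measure the spread between arrays. That spread was pooled over all 10 groups of the fit, newborn wild-type and Cyp1b1-null livers included. It was not taken from the 6 R-Cyp1b1-null arrays alone.

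Vitamin A is stored in the liver as retinyl esters, made by the acyltransferase Lrat in stellate cells, and leaves the liver as retinol bound to Rbp4 and Ttr. Retinol dehydrogenases and then retinal dehydrogenases oxidise it to retinoic acid, the ligand of the nuclear receptors Rara, Rarb and Rarg, which bind DNA together with an Rxr partner. Retinoic acid induces its own breakdown through the hydroxylase Cyp26a1, and the gene for Cyp26a1 is a textbook direct target of the receptors.

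Levels are given as log2 of the scanner's background-corrected signal minus the log2 of the same array's 75th percentile, so a difference of 1 is a doubling. The array of sufficient sample 3 stood apart from the other 5. Across genes it correlated with the remaining PN21 arrays at a median r of 0.54, against 0.90 to 0.95 for the other 5 R-Cyp1b1-null arrays. Its 75th percentile of signal was 1963, against 155.2 to 309.7, and its values were spread over an interquartile range of 1.95 log2 units, against 3.48 to 4.63. When genes were ordered by their level on sufficient arrays 1 and 2 and split into 4 sets of 5134, this array differed from those arrays by a median of -3.07 in the highest set and 2.82 in the lowest. Deficient array 3 had the fewest probes well above background, 33.7%, against 53.4% to 90.2% on the other 5. Samples with the same number lay on the same slide, and slide 3, scanned on another day than slides 1 and 2, held both of these arrays. Fitted differences and list medians are therefore given with all 6 arrays and without sufficient array 3.

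**Figure D1:**
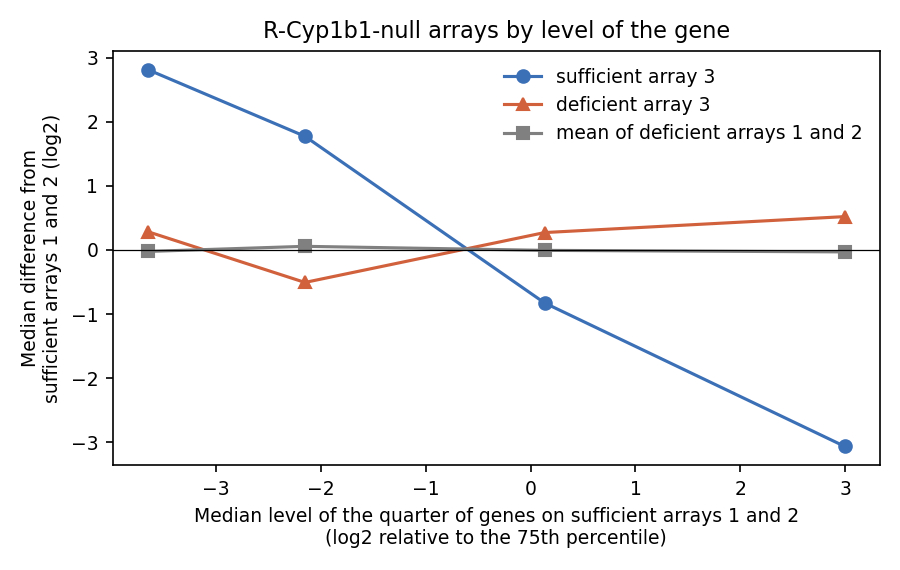
Median difference from sufficient arrays 1 and 2 (y axis, log2) for 4 sets of 5134 genes ordered by their level on those 2 arrays (x axis, log2 relative to the array's 75th percentile). Sufficient array 3 (circles) ran from 2.82 in the lowest set to -3.07 in the highest, whereas deficient array 3 (triangles) and the mean of deficient arrays 1 and 2 (squares) stayed between -0.51 and 0.52.

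Apart from sufficient array 3, the arrays carried the profile of liver. On them the scaled signal of hepatocyte markers summed to 7511 to 9188, and that of skeletal muscle markers to 5.66 to 10.3. All 19 measured hepatocyte markers were well above background on all 6 arrays. On sufficient array 3, however, so were 24 of 25 skeletal muscle and 20 of 21 exocrine pancreas markers. This flag therefore cannot show the tissue of that array, where the hepatocyte sum was 492 and the muscle sum 29.4. The probe for Cyp1b1 was well above background on all 6 arrays, at -0.58, 0.58 and -0.96 on the sufficient and 0.04, 0.35 and 0.14 on the deficient diet. Wild-type sufficient arrays read lower, from -2.72 to -2.45. No source used here says whether the probe lies inside the deleted part of the gene, so it does not check the genotype.

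Among 20537 genes, Cyp26a1 was the only one that passed the test of a diet difference in this substrain, and it was lower on the deficient diet. With so few arrays, other genes may have changed without passing. Cyp26a1 was the single gene called by limma at a Benjamini-Hochberg adjusted p under 0.05, both with all 6 arrays and without sufficient array 3. That is 0.00487% of the genes tested as lower, and 0% were called higher. At an unadjusted p under 0.05, 3.34% of genes were lower and 6.03% higher with 6 arrays. Without sufficient array 3 these shares were 0.365% and 1.26%. Of the 10301 genes well above background on the other 5 arrays, 26 were over 1 log2 unit higher and 66 over 1 log2 unit lower on the deficient diet, or 0.893% in all. This set leaves out any gene not well above background on a deficient array, Cyp26a1 included.

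Cyp26a1 hydroxylates retinoic acid and so clears it. Its level on the sufficient diet was 0.84, 0.22 and -1.37 in samples 1 to 3, and all 3 were well above background. On the deficient diet it was -4.96, -4.26 and -3.66, and none was well above background. The groups did not overlap, and the lowest sufficient array was the one that stood apart. On that array 19620 of 20537 genes were well above background. Its lowest set of genes read a median of 2.82 higher than on sufficient arrays 1 and 2. The reading of -1.37 there does not by itself show how much Cyp26a1 was present. As processed signal, the sufficient arrays read 474, 353 and 762 and the deficient arrays 6.39, 16.1 and 12.2.

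The fitted difference in Cyp26a1 was -4.19 (SE 0.58, limma adjusted p = 0.0456) with 6 arrays and -4.82 (SE 0.53, adjusted p = 0.00203) without sufficient array 3. Since no deficient array was well above background, the sufficient mean was set against a floor. It was 9.58-fold above the floor with 6 arrays and 14.8-fold above it without sufficient array 3. The floor on each deficient array was the higher of the probe's own signal and the lowest signal well above background. These folds are not strict lower bounds. Deficient array 2 read -4.263, above that array's lowest signal well above background of -4.335, and yet was not well above background. Within slides the difference was -5.80, -4.48 and -2.30 on slides 1, 2 and 3. With slide as a block over all 24 arrays the adjusted p was 0.0409, but here the wild-type pool's 3 arrays entered as 3 samples. Treating them so without the block gave 0.0105. An exact permutation test of this gene alone gave p = 0.1 (two-sided), the smallest that 3 against 3 arrays allows.

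The limma call of Cyp26a1 with 6 arrays was lost on leaving out R-Cyp1b1-null sufficient array 1 or 2 or any of the 3 deficient arrays (adjusted p from 0.113 to 0.365), wild-type deficient array 1 or 2, or any of the 4 Cyp1b1-null arrays. It was also lost with the 6 R-Cyp1b1-null arrays alone (adjusted p = 0.669, or 0.730 with slide as a block), without sufficient array 3 when the other 5 were fitted alone (0.277), and with a background correction that adds an offset of 50 (normexp), where the difference was -1.53 (0.620).

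The promoters of Cyp26a1 and of Rarb, the receptor that is itself induced by retinoic acid, are shown because both hold the direct repeat to which the receptors bind. The stretch shown for each is the 250 bases before the transcription start, in RefSeq's mouse build GRCm38.p6, on the gene's own strand. It is chr19:37697558-37697807 (plus strand) for Cyp26a1 and chr14:16575477-16575726 (minus strand) for Rarb. Capitals mark 17 bases made of 2 half-sites in the same orientation, each being AGGTCA or AGTTCA or GGGTCA or GGTTCA, separated by any 5 bases.
Cyp26a1: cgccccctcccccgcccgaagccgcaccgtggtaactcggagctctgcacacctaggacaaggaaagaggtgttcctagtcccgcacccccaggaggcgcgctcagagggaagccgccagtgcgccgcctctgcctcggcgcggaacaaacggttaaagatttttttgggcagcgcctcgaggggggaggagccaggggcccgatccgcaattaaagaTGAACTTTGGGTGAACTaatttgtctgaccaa
Rarb: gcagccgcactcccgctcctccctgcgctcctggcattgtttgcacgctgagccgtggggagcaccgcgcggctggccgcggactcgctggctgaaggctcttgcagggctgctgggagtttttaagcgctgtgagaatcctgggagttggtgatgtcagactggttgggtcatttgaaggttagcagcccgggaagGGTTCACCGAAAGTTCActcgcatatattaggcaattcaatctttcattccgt
Read 5′ to 3′ on the strand that carries it, the repeat was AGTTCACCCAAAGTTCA at Cyp26a1, on the strand opposite the gene, and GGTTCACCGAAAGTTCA at Rarb, on the gene's strand. It lay 16 to 32 bases before the start of Cyp26a1 and 37 to 53 bases before that of Rarb.

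Searched on both strands, the repeat was found in 29 of 32851 promoter stretches of this length, or 0.0883%. Among the 48 genes of the retinoid and receptor lists with a promoter stretch it was found in 2, Cyp26a1 and Rarb. Of the 28 genes that had it, 8 were measured in these livers. Without sufficient array 3, 5 of the 8 were lower on the deficient diet and 3 higher, with a median difference of -0.36. The 5 include Cyp26a1 itself. Blvrb and Rarb were well above background on all 3 deficient arrays, and the others of the 8 on at most 1. Of all 13311 measured genes with a promoter stretch, 5884 were lower and 7416 higher, with a median of 0.05. Cyp26a1 and Rarb were the 2 of the 8 at an unadjusted p under 0.05, both lower, beside 54 lower and 143 higher of the 13311. These counts include Cyp26a1, the gene already called in the same data, so they do not test the repeat. A match of letters is a description and does not show binding.

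**Figure D2:**
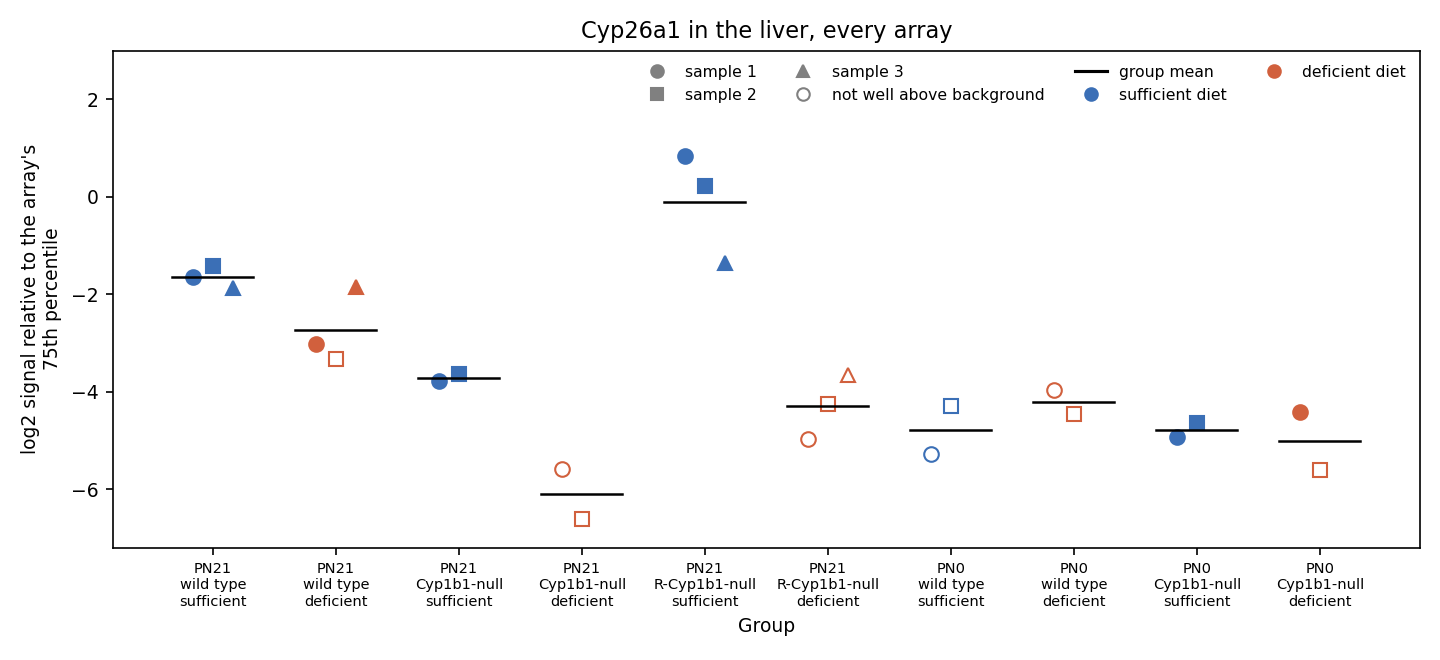
Level of Cyp26a1 on every array of the series (y axis, log2 relative to the array's 75th percentile) by group. Points are arrays, shaped by sample number, open where the probe was not well above background, and lines are group means. The R-Cyp1b1-null sufficient arrays lie at 0.84, 0.22 and -1.37, and the deficient arrays between -4.96 and -3.66.

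Across the series the R-Cyp1b1-null sufficient group had the highest mean Cyp26a1 level, -0.11 ± 1.14 (SD, n = 3). The 3 arrays of the wild-type sufficient pool averaged -1.65, from -1.87 to -1.41. R-Cyp1b1-null sufficient array 3, the array that stood apart, read -1.37. The 2 Cyp1b1-null sufficient samples averaged -3.71 and the newborn groups between -5.02 and -4.21. All Cyp1b1-null PN21 arrays lay on slide 4 and the newborn arrays on slides 5 and 6, so levels of those lines and ages cannot be told apart from slide. Slide 4 also belonged to another scan, with a negative-control signal of at most 24.95 against 131.4 to 686.6 on the R-Cyp1b1-null arrays. The scanner software marked this signal as within its accepted range on slide 4 and outside it on all 6 R-Cyp1b1-null arrays. Cyp26a1 was also lower on the deficient diet at PN21 in the other lines, with fitted differences of -1.09 (SE 0.67) in wild type and -2.39 (SE 0.58) in Cyp1b1-null mice, neither of which passed the test. In wild type the diets overlapped, as deficient array 3 read -1.85, within the range of the sufficient pool. That array held RNA of 1 mouse and correlated with the other PN21 arrays at a median r of 0.78. The diet difference in R-Cyp1b1-null mice minus that in wild type was -3.10 (SE 1.01, limma adjusted p = 0.341), and minus that in Cyp1b1-null mice it was -1.80 (SE 0.92, adjusted p = 0.773). Neither difference between lines passed the test. The deficient arrays of both null lines were not well above background for Cyp26a1, so these fitted sizes depend on the floor of each scan and the last one cannot be read as a measured difference.

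The other 39 measured genes of the list for retinoid storage, transport and oxidation did not pass the test. Over all 40, 20 were lower and 20 higher on the deficient diet without sufficient array 3, with a median difference of 0.01, beside 0.05 over all genes. With 6 arrays 12 were lower and 28 higher with a median of 0.90, and the median was -0.10, -0.10 and 2.50 within slides 1, 2 and 3. In 5 of the 40 all 3 deficient arrays lay below sufficient arrays 1 and 2, against 5.09% of all genes, and in 0 of them above, against 8.27%. The 5 were Cyp26a1, Cyp26b1, Lrat, Pnpla3 and Ces1d, which were named after their values were seen.

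Several of these act in storage and breakdown. Lrat, which esterifies retinol for storage, read 0.06, 0.46 and -0.56 on the sufficient and -0.29, -0.52 and -0.91 on the deficient diet. Deficient arrays 1 and 2 lay between sufficient arrays 1 and 3, so the groups overlapped only through sufficient array 3, and the difference was -0.56 with 6 arrays and -0.83 without it (SE 0.41, limma adjusted p = 1). Cyp26b1, the second retinoic acid hydroxylase of the liver, read 0.98, 2.93 and -0.39 against 0.69, 0.22 and 0.68. Its deficient arrays lay below sufficient arrays 1 and 2 and above array 3, and the difference was -0.65 with 6 arrays and -1.43 (SE 0.68) without array 3. Pnpla3, a lipase that also hydrolyses retinyl esters in stellate cells, read 0.10, 1.83 and 0.73 against -0.87, -0.07 and -0.21, and its groups did not overlap with all 6 arrays.

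The plasma carriers were among the abundant transcripts. Rbp4, the plasma retinol carrier, read 9.98, 9.89 and 6.52 against 10.21, 9.74 and 10.23, and Ttr, its partner in plasma, read 4.44, 4.71 and 0.80 against 4.27, 4.76 and 4.61. In both genes sufficient array 3 was the lowest array, and the diets overlapped on the remaining arrays.

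Among the dehydrogenases, Rdh10, which oxidises retinol, differed by 1.27 with 6 arrays and -0.05 without array 3. Dhrs3, which reduces retinal back to retinol, differed by 1.43 and 0.15 in the same way. Aldh1a1, an abundant retinal dehydrogenase of liver, read 5.85, 6.20 and 2.00 against 5.89, 6.24 and 7.09, with deficient array 3 the highest and sufficient array 3 the lowest. Aldh1a2, a second retinal dehydrogenase, was dim, well above background on 3 sufficient and 2 deficient arrays, and differed by -0.75 with 6 arrays and -0.06 without array 3. Stra6, the membrane receptor for retinol-bound Rbp4, read -0.53, -0.74 and 0.63 against 0.30, -0.61 and 0.34, and the groups overlapped.

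The list of receptors and known targets had 22 measured genes, of which 10 were lower and 12 higher without sufficient array 3, with a median of 0.03. With 6 arrays 9 were lower and 13 higher, with a median of 0.38. Cyp26a1 was again the 1 that passed the test. Rarb read 0.55, 1.02 and -0.27 on the sufficient and -0.17, 0.14 and 0.42 on the deficient diet. Its 3 deficient arrays lay below sufficient arrays 1 and 2 but above sufficient array 3, and its difference of -0.30 with 6 arrays and -0.65 without that array (SE 0.28, limma adjusted p = 1) did not pass. Nrip1, a corepressor that retinoic acid induces, read 0.92, 0.88 and 0.08 against 0.40, 0.22 and 0.23, a difference of -0.34 with 6 arrays and -0.61 without array 3. Rxra, the main receptor partner in hepatocytes, read 4.91, 5.15 and 2.21 against 5.66, 5.26 and 5.64, and lay above sufficient arrays 1 and 2 on all 3 deficient arrays.

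**Figure D3:**
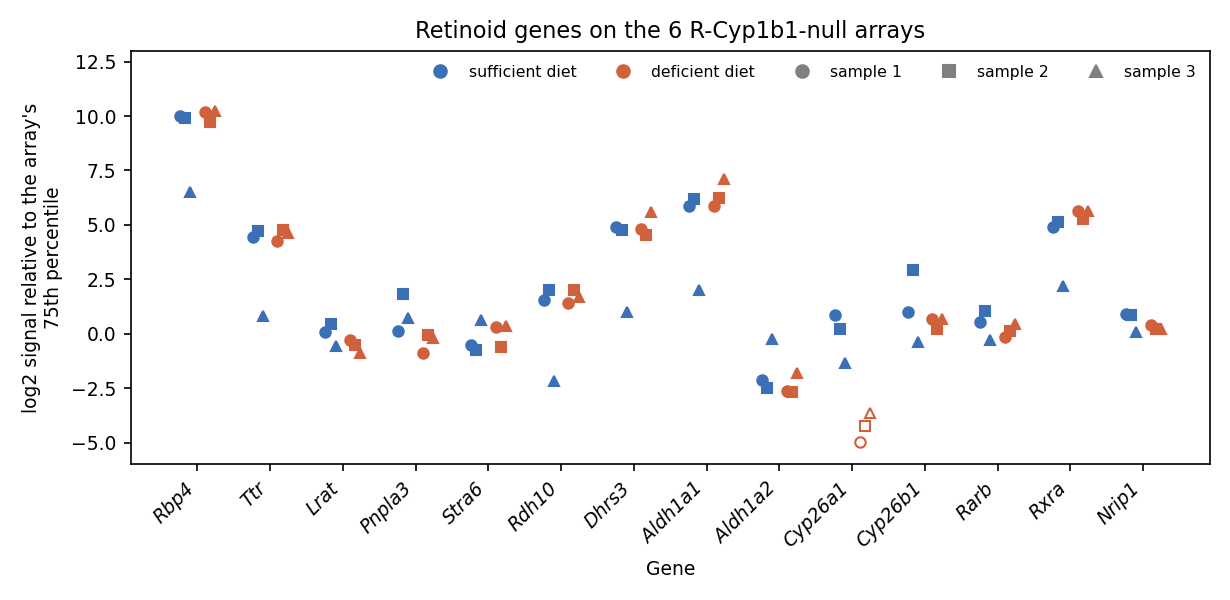
Levels of 14 retinoid genes on the 6 R-Cyp1b1-null arrays (y axis, log2 relative to the array's 75th percentile; x axis, genes). Blue points are the sufficient and orange points the deficient diet, shaped by sample number, with open points for Cyp26a1 where no deficient array was well above background. Cyp26a1 is the gene whose diets separate most, and sufficient array 3 (blue triangles) is the lowest array for abundant genes such as Rbp4 at 6.52.

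Among the 3 deficient arrays, genes of lipid synthesis had the lowest median on array 1. Of 42 measured genes of fatty acid and triglyceride synthesis, 26 were lower and 16 higher without sufficient array 3, with a median of -0.28. Against the mean of sufficient arrays 1 and 2, the median of the list was -0.43 on deficient array 1, 0.10 on array 2 and -0.01 on array 3, where the medians of all genes were 0.06, -0.05 and 0.23. Elovl6, which lengthens palmitate, read 4.95, 4.56 and -0.01 against 2.32, 4.37 and 4.47, so deficient array 1 alone was far below sufficient arrays 1 and 2. Pnpla5, a lipase of the same family as Pnpla3, read 0.69, 0.52 and -0.09 against -1.53, 0.35 and -0.65. None of the 42 passed the test. With all 6 arrays 10 were lower and 32 higher with a median of 0.89, and the median was -0.07 without both arrays of slide 3.

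Genes of cholesterol synthesis, which the factor SREBP2 controls, also differed among the deficient arrays. Of 27 measured, 19 were lower and 8 higher without sufficient array 3, with a median of -0.20, and 0 passed the test. The list's median was -0.68 on deficient array 1, 0.19 on array 2 and -0.07 on array 3. Fdps, which makes farnesyl diphosphate, read 4.09, 4.76 and 0.08 against 2.79, 4.90 and 0.75. Deficient array 2 sat at the level of sufficient arrays 1 and 2, and deficient arrays 1 and 3 lay below it. With all 6 arrays 3 were lower and 24 higher, with a median of 1.08, of the opposite sign.

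Fatty acid oxidation genes, many of them targets of the receptor Ppara, were higher more often than lower. Of 43 measured, 31 were higher and 12 lower without sufficient array 3, with a median of 0.16, where 11253 of all genes were higher and 9284 lower. With 6 arrays 41 were higher and 2 lower, with a median of 1.44, and 0 passed the test in either fit. Cpt1a, which brings fatty acids into mitochondria, read 3.94, 4.51 and 1.27 against 4.70, 4.84 and 5.72, above all 3 sufficient arrays on each deficient array. Ppara read 3.51, 4.29 and 0.94 against 4.37, 4.25 and 5.51, and Slc27a1, a fatty acid transporter, -0.56, -0.40 and 0.03 against -0.02, 0.02 and 0.36. Ppargc1b, a coactivator of mitochondrial genes, read 0.34, 1.46 and -0.16 against 2.20, 1.79 and 2.62, with no overlap between the diets and a difference of 1.66 with 6 arrays and 1.31 without array 3 (SE 0.51, limma adjusted p = 1). The median of this list was 0.52 on deficient array 3, where that of all genes was 0.23, and 0.08 and -0.03 on deficient arrays 1 and 2, where that of all genes was 0.06 and -0.05. Without sufficient array 3 the list's median was 0.03 with quantile normalization, 0.00 with normexp and 0.02 when deficient array 3 was left out too.

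In bile acid metabolism, Cyp7a1, the rate-limiting enzyme of bile acid synthesis, read -0.47, -1.24 and -2.23 on the sufficient and 0.01, 0.89 and 0.60 on the deficient diet. All 3 deficient arrays were above all 3 sufficient arrays, and the difference was 1.81 (SE 0.73, limma adjusted p = 0.341) with 6 arrays and 1.35 (SE 0.76) without sufficient array 3. Nr0b2, the repressor of Cyp7a1 also called SHP, read 2.17, 1.27 and 0.02 against 0.72, 1.33 and -0.96, and its groups overlapped. Nr1h4, the bile acid receptor, read 3.85, 4.12 and 0.94 against 4.19, 4.20 and 5.31. Over the 27 genes of the list, 11 were lower and 16 higher without array 3, with a median of 0.15 (0.04 with quantile normalization). With 6 arrays 7 were lower and 20 higher with a median of 1.14, and 0 passed the test.

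Hepcidin, the liver hormone that blocks iron export from other cells, read below its slide partner in deficient samples 1 and 2 and far above it in sample 3. Hamp read 1.64, 1.69 and -2.80 on the sufficient and -0.63, -0.54 and 5.67 on the deficient diet. Within slides the difference was -2.27 and -2.23 on slides 1 and 2 and 8.47 on slide 3, of opposite signs. The fitted difference of 1.32 (SE 1.37, limma adjusted p = 0.495) did not pass, and it became -0.16 without sufficient array 3 and -2.25 without both arrays of slide 3, neither of which passed.

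The paralog Hamp2 read 4.53, 2.93 and -1.22 against 2.71, 2.46 and 5.76, again with deficient array 3 the highest and sufficient array 3 the lowest of the 6. The 2 genes are near-identical copies, but their probes read far apart on other arrays of the series. On the newborn wild-type sufficient arrays Hamp read 6.98 and 6.86, and Hamp2 -1.48 and -4.15, the last not well above background. On the PN21 Cyp1b1-null sufficient arrays Hamp read -3.89 and -4.65, and Hamp2 1.71 and 1.07. Sharing of signal between the probes was not tested. Bmp6, the growth factor that induces hepcidin when iron is high, read -2.27 and -2.83 on sufficient arrays 1 and 2, both well above background, and -5.69 on array 3. Its deficient arrays, at -4.51, -3.90 and -3.30, were not well above background, and its difference was -0.31 with 6 arrays and -1.35 without array 3. Smad7, a target and inhibitor of that pathway, read -2.59, -2.16 and -2.85 against -3.78, -2.97 and -2.82. Bmp6, Smad7 and the ferric reductase Steap3 were the 3 of 29 iron genes at an unadjusted p under 0.05 without sufficient array 3, all lower, where 0.365% of all genes were lower and 1.26% higher, and none passed after adjustment. Smad7 was well above background on 1 deficient array and Steap3 on none, so none of these genes was measured throughout the deficient group. Over the 29 iron genes 13 were lower and 16 higher without sufficient array 3, with a median of 0.06. With 6 arrays 1 iron gene was lower and 3 higher at an unadjusted p under 0.05.

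**Figure D4:**
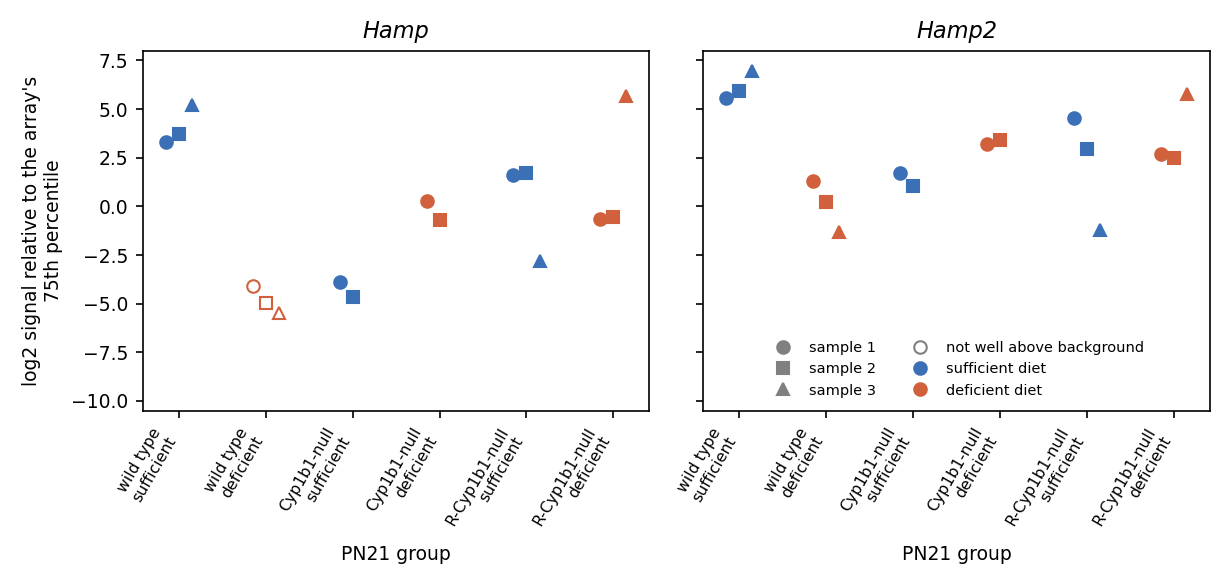
Levels of Hamp (left) and Hamp2 (right) in the 6 PN21 groups (y axis, log2 relative to the array's 75th percentile). Points are arrays, blue for the sufficient and orange for the deficient diet, shaped by sample number and open where not well above background. In R-Cyp1b1-null mice deficient samples 1 and 2 lie at -0.63 and -0.54 for Hamp and sample 3 at 5.67.

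Among the genes with the smallest p in the fit of 6 arrays, several had diets that did not overlap, though only Cyp26a1 passed. Xlr4b and Xlr3c, members of the X-linked lymphocyte-regulated family, both read higher on the deficient diet. Xlr4b read -1.13, -0.02 and -1.07 against 1.34, 1.95 and 0.31, a difference of 1.94 (SE 0.48, limma adjusted p = 0.341) with 6 arrays and 1.77 without array 3. Xlr3c read -2.85, -0.93 and -3.60 against -0.48, 0.21 and -0.48, a difference of 2.21 and 1.64. The members of this family are close copies, so their probes may share signal. Lgals4, a galectin of gut and liver, read 1.48, 1.59 and 0.74 against 3.31, 2.43 and 3.18, and the chromatin remodeller Smarca2 read 0.74, 0.58 and -0.53 against 1.79, 0.93 and 2.02.

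On the lower side, Ttc41 read 0.37, -1.84 and -0.48 on the sufficient and -2.20, -1.98 and -3.32 on the deficient diet, and Gorab, a Golgi protein, -2.52, -2.36 and -1.87 against -3.64, -2.97 and -3.55. The diets did not overlap in either gene. On deficient array 3, however, both read below that array's lowest signal well above background, -2.07. Of all genes, 2.83% had all 3 deficient arrays below all 3 sufficient arrays and 4.77% above. Tnfsf14, a cytokine, read -2.59, -2.58 and -1.46 against -3.16, -3.75 and -3.44, none of the deficient arrays well above background, and it was also among the 4 genes with the smallest p for the difference from wild type. Besides Xlr4b, the genes with the smallest p in the higher direction without sufficient array 3, Muc3, Fcer1a, S1pr4, Serpini1, Slain1, Olfr485 and Olfr1274, were not well above background on sufficient arrays 1 and 2 and reached that level on at most 1 deficient array, so they give no fold.

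Markers of the other cell types gave no call on either side. The 19 hepatocyte markers had a median difference of 1.38 with 6 arrays and 0.09 without sufficient array 3, and their summed signal, relative to the array's 75th percentile, was 8671, 7511 and 492 on the sufficient and 8538, 7538 and 9188 on the deficient diet. Sufficient array 3 was thus far below the other 5, which overlapped. The 17 stellate cell markers had a median of 0.77 with 6 arrays and 0.16 without that array, and the 19 macrophage markers 0.80 and -0.03.

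Markers of tissues that a liver sample could carry along were summed in the same way. The 12 adipocyte markers summed to 93.7, 124 and 21.8 on the sufficient and 130.2, 153 and 245 on the deficient diet. Every deficient array was above every sufficient array, although 7 of the 12 were lower and 5 higher without sufficient array 3. Of the 12, 12, 10 and 12 were well above background on the sufficient arrays and 8, 9 and 4 on the deficient arrays. The sum thus rests on part of the list and does not show more adipose tissue on the deficient diet. The 25 skeletal muscle markers summed to 8.65, 5.66 and 29.4 on the sufficient and 10.3, 6.00 and 5.98 on the deficient diet. The 21 exocrine pancreas markers summed to 11.6, 5.97 and 18.8 against 10.3, 6.67 and 6.10, and the 19 neutrophil markers to 9.39, 9.65 and 16.5 against 7.38, 6.75 and 10.8. For muscle, pancreas and neutrophil markers sufficient array 3 was the highest. Of the neutrophil markers 15 were lower and 4 higher without that array, with a median of -0.28 (-0.80 with 6 arrays) that turned to 0.12 with normexp, and 16, 16 and 17 were well above background on the sufficient arrays against 12, 13 and 3 on the deficient arrays. Over all genes these counts were 18148, 18275 and 19620 against 15096, 16423 and 10343 of 20537. In bulk liver fewer cells of a type and less RNA per cell cannot be told apart, and the part of these cells in the results above was not tested.

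**Figure D5:**
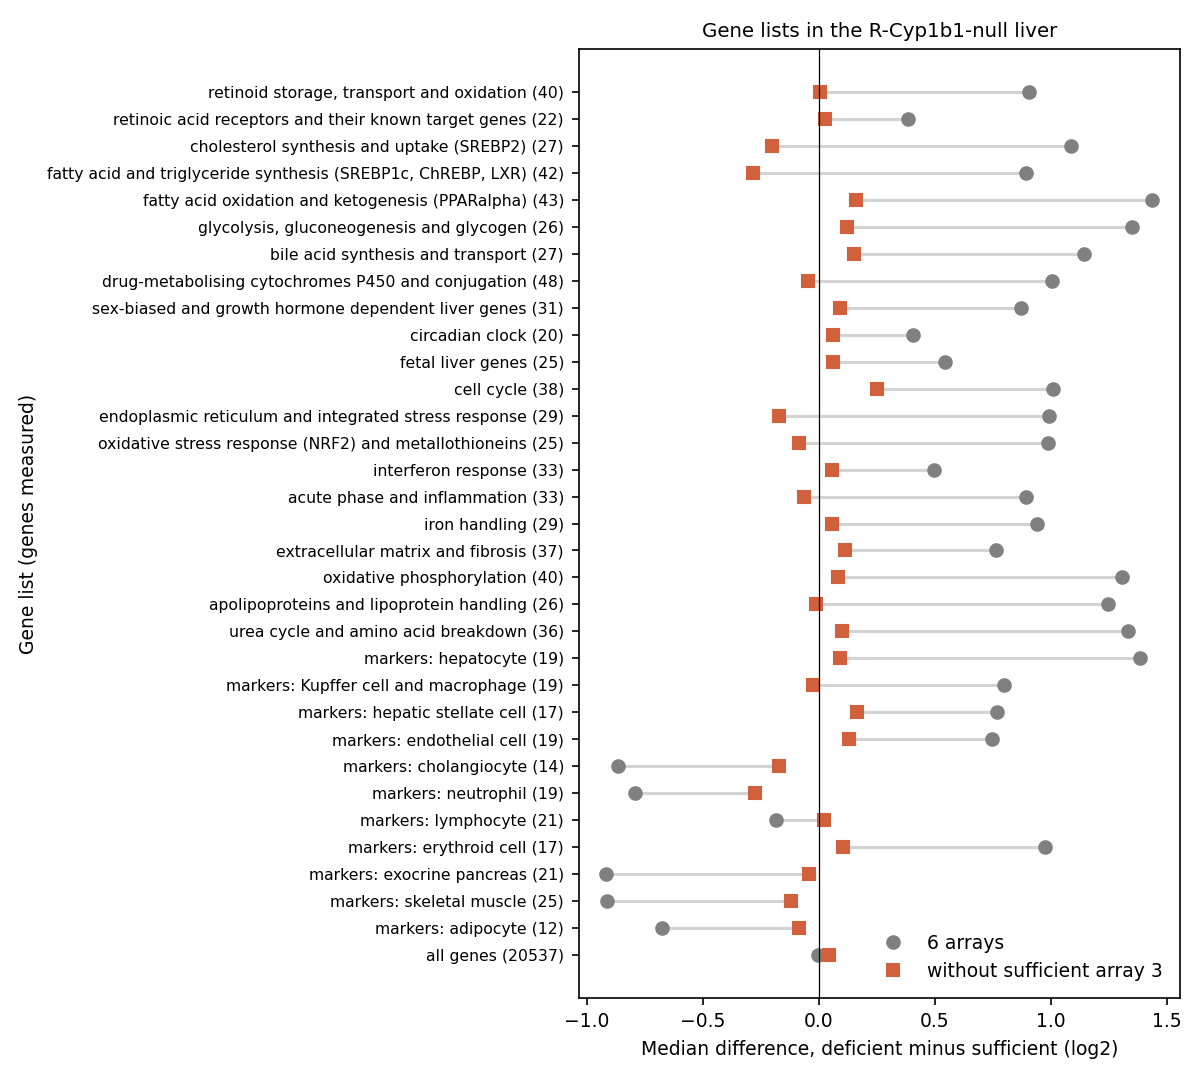
Median diet difference (x axis, log2, deficient minus sufficient) of 32 gene lists and of all genes in the R-Cyp1b1-null liver, with all 6 arrays (circles) and without sufficient array 3 (squares); the number of measured genes is in brackets. Without that array the medians lie between -0.28 and 0.25, whereas with it they reach 1.44 for fatty acid oxidation and -0.92 for exocrine pancreas markers.

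The other lists lay near the median of all genes once sufficient array 3 was left out. Their medians ran from -0.28 to 0.25, beside 0.05 over all genes, and 0 of their genes other than Cyp26a1 passed the test. Cell cycle genes had the highest median, 0.25, with 29 of 38 higher (31 of 38 and 1.01 with 6 arrays), but the 3 deficient arrays were far apart, at -0.58, 0.24 and 1.09, and without both arrays of slide 3 the median was -0.15. Cdc20, which starts chromosome separation, read 1.83, 2.78 and -1.23 against 1.94, 2.72 and 4.57, and Plk1, a mitotic kinase, 0.58, 1.24 and -2.17 against 0.16, 1.43 and 3.26. Deficient array 3 was the highest of the 6 for both. Stress response genes of the endoplasmic reticulum had a median of -0.17 without array 3 and 0.99 with 6 arrays. Atf3, a stress-induced factor, read -1.98, -1.26 and -1.49 against -2.94, -2.46 and -2.80, without overlap. On deficient array 3, however, Atf3 read below that array's lowest signal well above background, -2.07.

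The diet difference in R-Cyp1b1-null mice was also tested against that in the other 2 lines. Against wild type 0 of 20537 genes passed in limma, with 7.85% lower and 1.49% higher at an unadjusted p under 0.05, or 4.28% and 0.954% without sufficient array 3. The smallest p values belonged to the transcript AK048933, Tnfsf14, Ren2 and Hamp. The fitted diet difference of Hamp in wild type was -8.95, with no deficient array well above background, and the difference between the lines was 10.28 (SE 2.37, limma adjusted p = 0.341). Without both R-Cyp1b1-null arrays of slide 3, Hamp was the 1 gene called in this test (adjusted p = 0.0480), as higher, and it was also called against the Cyp1b1-null line, as lower. Against the Cyp1b1-null line 1 gene passed, Ifi202b, an interferon-inducible gene, as 0.00487% of genes tested in the lower direction, while 0.492% were lower and 0.331% higher at an unadjusted p under 0.05, or 0.399% and 0.652% without sufficient array 3. In R-Cyp1b1-null mice Ifi202b differed by -0.07 (SE 0.47) with diet, at -0.38, -1.23 and -0.43 on the sufficient and -0.59, -0.45 and -1.19 on the deficient diet.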

How the data were processed

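Liver RNA was hybridised to 24 Agilent 1-colour arrays, and scanned files were made with Agilent Feature Extraction 10.7.3.1, per the file headers. The deposited files give an intensity per spot, the processed signal being background-subtracted by the scanner software. The authors' deposited series table held the same linear intensity, to a relative difference of at most 0.005. Feature Extraction and limma are named in the submitters' processing notes. Each array had 45018 spots. Control spots were removed, as were 2048 outlier spots over all arrays. Repeat spots of a probe were averaged. Values were log2 of the processed signal minus the array's 75th percentile. A gene was represented by its brightest probe among 30932 probes detected (well above background) throughout at least 1 group. RefSeq tables named 27902 probes by accession, 5449 by symbol and 370 by synonym, and 7453 kept the file's name.

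Tests used limma 3.58.1 in R 4.3.3 on 22 samples in 10 groups, with Benjamini-Hochberg adjustment over 20537 genes at a threshold of 0.05, and a second fit without R-Cyp1b1-null sufficient array 3. The script was tested on simulated data. Alternatives covered normalization, background correction, filters, blocks, array weights and left-out arrays. The number of arrays limits precision, and no spot was saturated. The gene lists, the arrays set aside and the comparison itself were chosen with earlier results of these data known. Genes were named by rule: Cyp1b1 and 13 retinoid genes, up to 8 genes per direction in each fit (called genes, then the smallest p), 3 genes of smallest p per list in each fit, and 4 of smallest p for each difference between lines. Ces1d, Nrip1 and Hamp2 were chosen after their values were seen. Promoter sequences were read from RefSeq's GRCm38.p6 table. A few genes are not reported here.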

Additional observations from a re-analysis of the deposited data

Results flagged for a closer look

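Ifi202b passed the test of a difference between lines in the response to diet. The difference in R-Cyp1b1-null mice minus that in Cyp1b1-null mice was -6.43 (SE 0.74, limma adjusted p = 0.0038). The call was lost with quantile normalization, with normexp, and on leaving out Cyp1b1-null sufficient array 1 or deficient array 1. The R-Cyp1b1-null arrays ran from -1.23 to -0.38 on both diets. In the Cyp1b1-null line the sufficient samples read -7.57 and -7.26, neither well above background, and the deficient samples -0.82 and -1.29, both well above background, so the size is a fitted value and not a measured fold. Wild-type arrays at PN21 lay between -3.51 and -1.64.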

How the results depend on the processing

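Cyp26a1 was lower on the deficient diet under all 38 alternatives, by differences from -6.12 to -1.53, and 15 of them called it. Its limma call, and with it the only gene called, was lost (0 genes) with normexp and quantile normalization (-1.64), normexp and the 75th percentile (-1.53), quantile normalization (-4.43), no filter on dim probes, the PN21 groups only and the 6 R-Cyp1b1-null arrays only with or without slide as a block (-4.19 in each). Alternatives chosen after seeing the data also gave 0 genes: without sufficient array 3, normexp gave -2.12 and a fit of the other 5 arrays alone -4.82, and slides 1 and 2 of this substrain alone with slide as a block gave -5.14. Leaving out 1 array at a time gave 0 to 1 gene and differences from -4.82 to -3.72.

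Same-numbered R-Cyp1b1-null samples deviated from their group means with correlations of -0.29, 0.18 and -0.17, so the numbers were not taken as pairs. With the replicate block the difference in Cyp26a1 was -4.19 and 0 genes were called, in the PN21 groups (adjusted p = 0.373) and in the 6 arrays alone (0.730).

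For the difference from wild type, where 0 genes were called, array weights called 374, leaving out the 2 arrays of low correlation 1 (Muc3), and leaving out both R-Cyp1b1-null arrays 3 called 1 (Hamp). The 2 arrays of low correlation were R-Cyp1b1-null sufficient array 3 (median r of 0.54) and wild-type deficient array 3 (0.78). For the difference from the Cyp1b1-null line, where 1 gene was called, normexp with either scaling, quantile normalization, the PN21 groups only, and quantile normalization without the 2 arrays gave 0, as did normexp or quantile normalization without sufficient array 3. Slide as a block gave 2 (Ifi202b and Trmt61b), array weights 3, leaving out both arrays 3 gave 2 (Hamp and Ifi202b), and leaving out 1 array at a time 0 to 2. The causes were not tested. Of 7220 alternatives of the other 190 named genes, 6706 kept direction and side, 514 turned direction without a call and 0 gave a call. Quantile normalization moved the median of all genes to 0.15 and normexp with the 75th percentile to 0.21. Genes not well above background have only an upper bound of their level.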

Other observations

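Dbp, an output gene of the circadian clock, read 1.84, 5.11 and 2.46 on the sufficient and 5.11, 5.09 and 3.77 on the deficient diet. Arntl, which peaks at the opposite time of day to Dbp, read 1.48, 0.35 and 1.19 against -0.25, 0.18 and 0.90. Cry1, a repressor of the clock, read -1.56, -2.73 and -1.07 against -2.73, -3.07 and -3.35. Of 20 clock genes measured, 12 were higher and 8 lower without sufficient array 3, with a median of 0.06. With 6 arrays 14 were higher and 6 lower with a median of 0.41, and 0 passed the limma test. No source used here gives the time of day at which livers were taken.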
